A study of Mus musculus with 12 samples.

Results

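The genes that take fatty acids into the heart muscle cell, activate them and oxidise them in mitochondria were followed across 12 mouse heart samples, each measured on 1 Agilent single-colour expression array. The set holds 41 genes, found as the non-control probes whose gene name in the array files is on a list of transport, activation and oxidation genes and their regulators. The rule uses no measured value, but the list was chosen with earlier results of these data known. The members' shares and medians beside those of all tested genes are therefore descriptive. The 41 genes have 70 of the 56556 probes and are 41 of the 36981 genes named on the array. Every array measured all 41 well above background, and all 41 were among the 19761 genes tested.

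The samples form 4 groups of 3. TG-CCRR+MI hearts carry a CCRR transgene, which encodes a long non-coding RNA, and had a myocardial infarction. WT+MI hearts are wild-type hearts after infarction and TG-CCRR hearts are transgenic hearts without infarction. WT hearts are wild-type without infarction. In the sources used here the strain C57/BL6 is stated for WT+MI and WT only, so strain and transgene cannot be told apart. The promoter and cell type that drive the transgene, the time after infarction, the region of heart taken and the age and sex of the mice are nowhere stated in those sources. Nothing says that the samples of a group came from separate mice, so p-values may reflect technical spread alone. WT+MI 2 and WT+MI 3 carry a title prefix unlike that of WT+MI 1 and were placed by their stated subgroup. The study's title asks about inflammation after infarction, and the fatty acid genes are not named in it.

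The adult heart burns mainly long-chain fatty acids. Lipoprotein lipase frees them from circulating lipid, carrier and binding proteins bring them into the cell, acyl-CoA synthetases activate them, and the carnitine system moves them into mitochondria, where rounds of dehydrogenation, hydration, dehydrogenation and thiolysis shorten the chain. The nuclear receptor PPARα with its partner RXRα, the oestrogen-related receptor ERRα and the PGC-1 coactivators switch these genes on, and the injured or failing heart is known for expressing them at lower levels.

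Promoters of 34 of the 41 genes were found in RefSeq (build GRCm38.p6), as windows from 250 bases before to 50 bases after the transcription start. The windows below, printed 5′ to 3′ on the gene's strand, are those of Ppara, Cpt1a, Pdk4 and Echs1, which differ between transgenic and wild-type hearts in level or in response, and of Hadhb, which shares its promoter with Hadha. The Ppara window (chr15:85735526-85735825, plus strand) has in capitals a match to the core of the NRF1 element (GCGCA, any base, then GCGC). The Hadhb window (chr5:30155003-30155302, plus strand) has in capitals the 228 bases it shares with the window of Hadha, which starts 272 bases away and runs in the opposite direction. The Cpt1a window (chr19:3323051-3323350, plus strand) has in capitals a nuclear receptor half-site, AGGTCA read on the opposite strand. The Echs1 window (chr7:140116372-140116671, minus strand) has the half-site AGGTCA in capitals, and the Pdk4 window (chr6:5496229-5496528, minus strand) has no such half-site and so no capitals.
Ppara: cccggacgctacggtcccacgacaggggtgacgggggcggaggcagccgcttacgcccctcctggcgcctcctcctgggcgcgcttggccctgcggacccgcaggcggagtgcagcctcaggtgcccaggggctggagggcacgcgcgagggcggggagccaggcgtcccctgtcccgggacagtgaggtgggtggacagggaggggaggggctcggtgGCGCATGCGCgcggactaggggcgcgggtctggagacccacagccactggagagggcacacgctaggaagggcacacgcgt
Hadhb: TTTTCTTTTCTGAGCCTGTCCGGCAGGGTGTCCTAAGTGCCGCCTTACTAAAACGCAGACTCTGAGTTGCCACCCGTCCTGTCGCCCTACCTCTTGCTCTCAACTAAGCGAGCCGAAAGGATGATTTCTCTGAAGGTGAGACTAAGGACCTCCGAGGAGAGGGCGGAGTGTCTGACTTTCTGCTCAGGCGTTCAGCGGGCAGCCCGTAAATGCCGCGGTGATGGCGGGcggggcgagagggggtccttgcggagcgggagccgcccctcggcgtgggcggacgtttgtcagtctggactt
Cpt1a: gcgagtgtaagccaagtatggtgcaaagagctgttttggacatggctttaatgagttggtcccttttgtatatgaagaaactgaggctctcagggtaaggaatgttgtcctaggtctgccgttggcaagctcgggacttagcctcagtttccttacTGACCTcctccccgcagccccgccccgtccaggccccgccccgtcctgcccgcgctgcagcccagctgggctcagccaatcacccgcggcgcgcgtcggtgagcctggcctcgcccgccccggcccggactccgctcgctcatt
Echs1: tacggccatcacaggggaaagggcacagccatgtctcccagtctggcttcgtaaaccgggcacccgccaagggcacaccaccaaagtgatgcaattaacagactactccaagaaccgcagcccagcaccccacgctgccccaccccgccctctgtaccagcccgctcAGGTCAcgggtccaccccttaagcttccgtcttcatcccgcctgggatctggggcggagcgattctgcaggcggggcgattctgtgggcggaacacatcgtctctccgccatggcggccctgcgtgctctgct
Pdk4: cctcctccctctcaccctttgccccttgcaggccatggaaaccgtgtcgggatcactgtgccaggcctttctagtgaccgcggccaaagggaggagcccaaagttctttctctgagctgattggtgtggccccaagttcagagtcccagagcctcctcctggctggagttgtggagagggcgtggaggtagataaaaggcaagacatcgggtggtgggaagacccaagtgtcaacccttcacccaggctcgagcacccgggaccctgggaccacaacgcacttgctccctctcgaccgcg

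Motifs were searched on both strands, and a match is a description of letters, not of a bound site. The half-site AGGTCA stood in windows of 7 of the 34 genes (20.6%), namely Acadm, Acadvl, Cpt1a, Echs1, Plin5, Rxra and Ucp3, against 18.1% of all genes with a window. It is part of the longer searches TNAAGGTCA, the extended oestrogen-related receptor element, which 0 of 34 windowed genes and 1.43% of all genes had, and 2 copies of AGGTCA with 1 base between them, the direct repeat bound by PPAR and RXR, which 0 of 34 and 0.048% had. The GC box GGGCGG stood in 25 of 34 genes (73.5%, against 38.2% of all genes). The NRF1 core stood in Etfb, Etfdh, Ppara and Slc22a5 (11.8%, against 5.19% of all genes). CCAAT stood in 15 genes (44.1%, against 41.1%) and the E-box CACGTG in 1, Slc27a1 (2.94%, against 8.09%). The search covers 300 bases, and distal elements lie outside it.

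Values are log2 of the background-subtracted signal minus the 75th percentile of the same array, so a value of 4 lies 4 doublings above that percentile. They are compared within a gene only. Per the array files, whose probe positions are on build mm9, the Ppara probe lies at chr15:85632110-85632169, the Cpt1a probe at chr19:3385374-3385433 and the Pdk4 probe at chr6:5433441-5433500. Differences are given with limma's standard error, with 3 arrays in each group, and a gene counts as changed where limma's p-value, adjusted by Benjamini-Hochberg over the 19761 genes, is under 0.05. Between 49.3% and 57.2% of an array's spots were well above background, no spot reached saturation, and any 2 arrays had a Spearman correlation of at least 0.909. All TG-CCRR+MI arrays and TG-CCRR 3 lay on slide 2, and all other arrays on slide 1, each slide having its own scan.

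Marker genes of several cell types differed between the arrays. On each of the 12 arrays all 16 cardiomyocyte markers exceeded background. The log2 of their summed signal lay between 11.98 and 12.39 in WT+MI, below the 12.42 to 12.73 of WT hearts. In TG-CCRR+MI it lay between 12.01 and 12.46 and in TG-CCRR between 12.01 and 12.34. The brightest markers weigh most in such a sum. The log2 of the summed signal of 4 atrial markers was at least 7.84 in TG-CCRR hearts, against at most 1.81 in WT hearts. It ranged from 1.37 to 6.39 in TG-CCRR+MI and from 0.73 to 8.29 in WT+MI, where WT+MI 1 was the high array. White adipocyte markers stood 5.42 above their gene means on TG-CCRR 1 (median deviation over 6 tested of 8 listed), the highest of the 12 arrays. The log2 of the summed signal of the 8 ran from 7.55 to 8.29 in TG-CCRR and from 7.39 to 7.58 in WT hearts. Their median difference was 3.67 in TG-CCRR against WT and -4.06 in TG-CCRR+MI against TG-CCRR, with 0 called in either and 4 of 6 at an unadjusted p under 0.05 in each. Fibroblast markers had medians of 0.71 (1 of 7 called) and -1.39 (3 of 7 called) in these comparisons. The medians of 9 monocyte and macrophage markers were 0.31 and -0.55, and those of 4 erythroid markers -1.94 and 0.52. In WT+MI against WT the medians were 0.34 for monocyte and macrophage markers (2 of 9 higher), -1.42 for erythroid markers (2 of 4 lower) and -0.23 for fibroblast markers (2 of 7 lower). Neutrophil markers were higher in WT+MI than in WT for 5 of 7 genes, and WT+MI 1 was again the highest. In TG-CCRR+MI against TG-CCRR 4 of the 7 were higher. The 2 tested liver markers were higher in WT+MI than in WT (median 3.71). Between TG-CCRR+MI and WT+MI the median was -2.53 for neutrophil markers (4 of 7 lower) and -0.75 for monocyte and macrophage markers (2 of 9 lower). It was -2.74 for liver markers (0 of 2 called) and 0.12 for cardiomyocyte markers (1 of 16 higher). Fibroblast, white adipocyte and erythroid markers had 0 called there. The part of these differences in the results that follow was not tested, and in heart tissue fewer cells of a type cannot be told apart from less RNA per cell.

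After infarction in wild-type hearts most of the pathway was expressed at a lower level. Of the 41 genes, 28 were lower and 2 higher in WT+MI than in WT, so 73.2% changed, where 47.9% of all tested genes did (29.4% lower and 18.6% higher). The median difference of the 41 was -0.62, against -0.14 over all tested genes. In 29 genes all 3 WT+MI arrays lay below all 3 WT arrays, a pattern found in 38.7% of all tested genes, and in 2 genes all lay above (25% of all genes). The genes that were higher were Pdk4 and Acsl4.

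In transgenic hearts few of them changed with infarction. Of the 41, 1 was higher and 2 were lower in TG-CCRR+MI than in TG-CCRR, which is 7.32%, near the 8.83% of all tested genes (5.19% higher and 3.64% lower). Their median difference was -0.04, and that of all genes 0.04. The arrays of the 2 groups overlapped for 33 members, while 4 lay wholly higher and 4 wholly lower (17.1% and 12.8% of all genes). In 36 of the 41 genes the difference was more negative in the wild-type pair than in the transgenic pair, as in 61.1% of all tested genes. When the 2 responses were set against each other, 3 genes passed, all with a higher value for the transgenic pair (Ppara, Etfa and Echs1). They are 7.32% of the 41, against 8.74% of all tested genes (5.73% higher and 3.01% lower). The median of that difference was 0.60 for the 41 genes and 0.14 for all genes. On arrays scaled by 16 cardiomyocyte markers those medians were 0.18 and -0.28, and Ppara, Etfa and Echs1 did not pass.

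**Figure D1:**
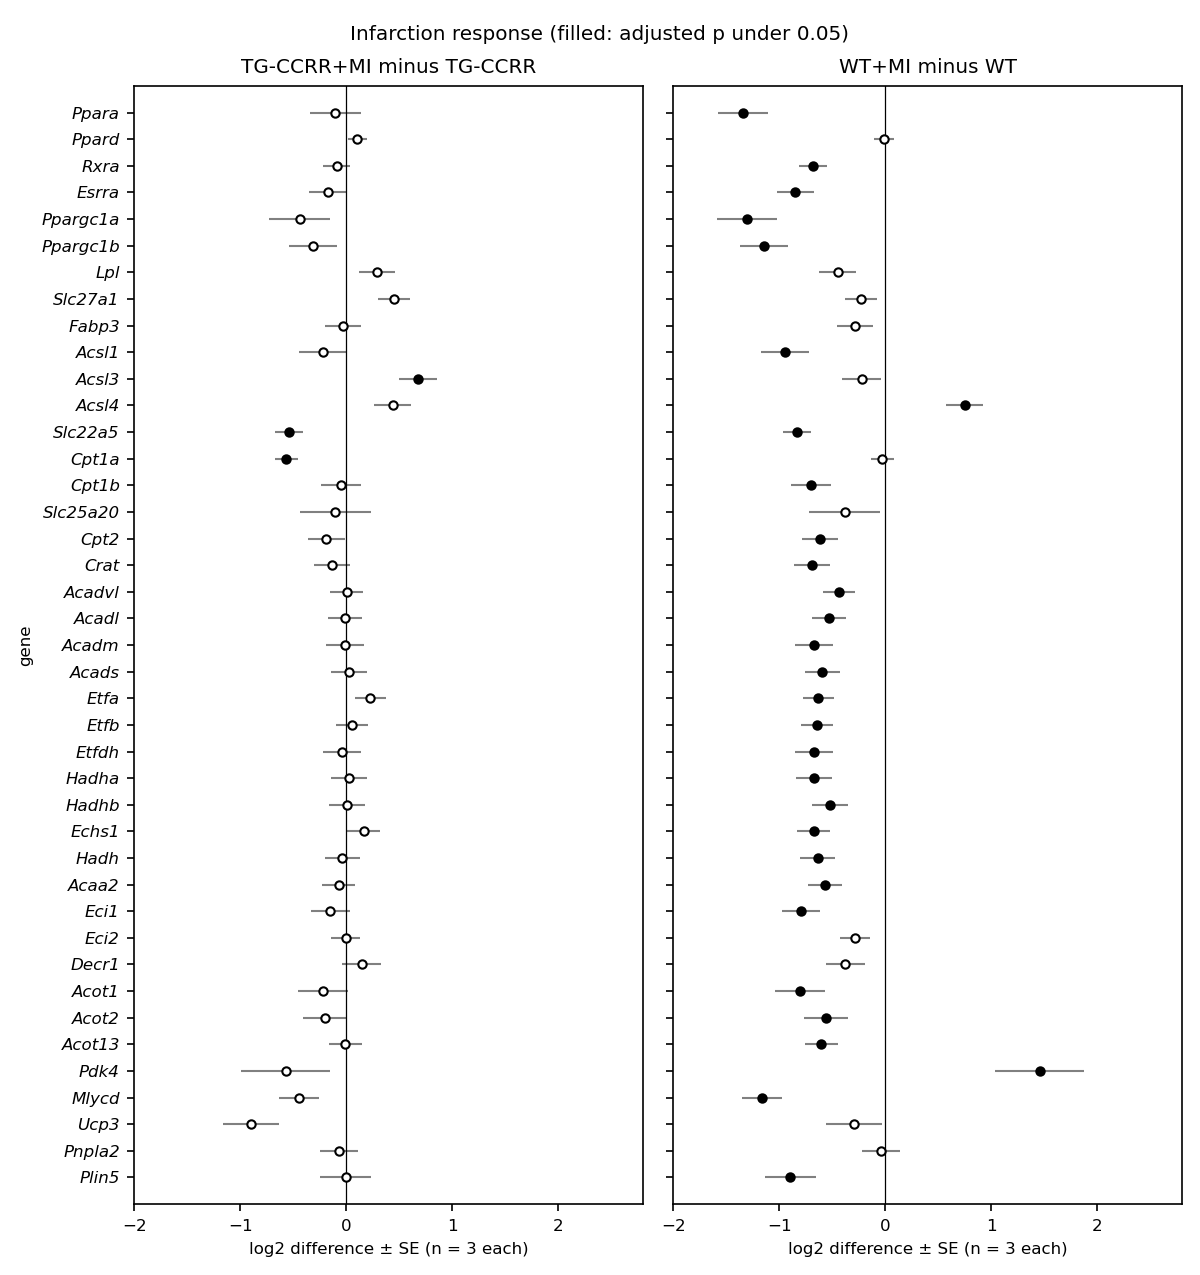
Log2 differences ± SE of the 41 genes (n = 3 each) for TG-CCRR+MI minus TG-CCRR (left) and WT+MI minus WT (right), with filled points for limma adjusted p under 0.05. Most wild-type points lie near -0.6, with Pdk4 at 1.46 and Acsl4 at 0.75, while most transgenic points straddle 0.

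Without infarction, 2 of the 41 were higher in TG-CCRR than in WT and 0 were lower, which is 4.88% against 2.62% of all tested genes (1.49% higher, 1.13% lower). The median difference was -0.17, with -0.06 for all genes, and 9 of the 41 had an unadjusted p under 0.05 (22.0%, against 17.9% of all genes). All 3 TG-CCRR arrays lay above all WT arrays for 5 members and below them for 13 (12.6% and 20.9% of all genes). After infarction, 6 were higher in TG-CCRR+MI than in WT+MI and 0 were lower, which is 14.6% against 12.2% of all tested genes (7.77% higher, 4.39% lower). Their median difference was 0.38, and that of all genes 0.09, and in 20 members all 3 TG-CCRR+MI arrays lay above all 3 WT+MI arrays (22.7% of all genes). In 0 members did they all lie below (11.3% of all genes). WT+MI had the lowest group mean for 36 members. WT+MI 1 alone was the lowest of the 12 arrays for 34 of the 41. These 2 patterns were not counted over all tested genes. WT+MI 1 also lay farthest out on the first principal component of all tested genes, at 106.9. On it WT+MI 2 lay at 70.1 and WT+MI 3 at 57.2.

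**Figure D2:**
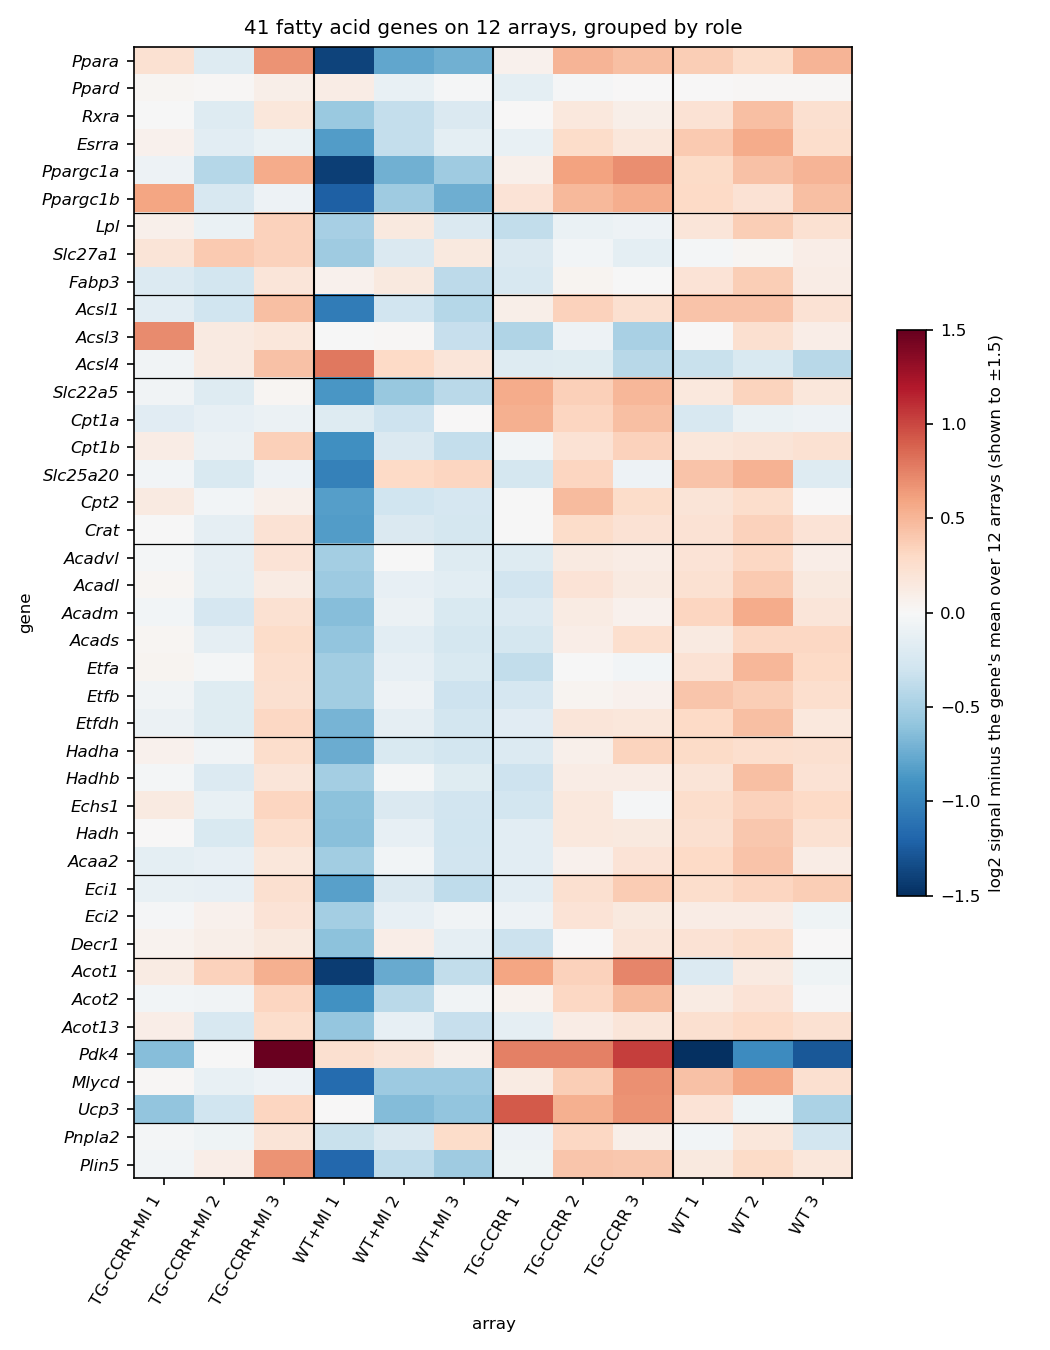
Each gene's log2 signal minus its mean over the 12 arrays, with genes in rows by role and arrays in columns by group. WT+MI 1 is the bluest column, lowest of 12 arrays for 34 genes (not counted over all tested genes), and Pdk4 and Acsl4 are the rows in which all 3 WT columns lie below all 3 WT+MI columns.

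The regulators had the most negative median of the 10 roles in WT+MI against WT, -1.0. Of the 6, 5 were lower (83.3%, against 29.4% of all tested genes). Between TG-CCRR+MI and TG-CCRR 0 of the 6 changed by limma's adjusted p, as 8.83% of all tested genes did. At an unadjusted p under 0.05 there were also 0 (25.7% of all tested genes), and their median was -0.14. Ppara, the receptor that senses fatty acids, stood at 3.97, 3.55 and 4.41 in TG-CCRR+MI, 2.35, 2.96 and 3.02 in WT+MI, 3.80, 4.25 and 4.19 in TG-CCRR, and 4.10, 4.01 and 4.25 in WT hearts. The 3 WT+MI arrays lay below all others, and the other 3 groups overlapped. In WT+MI it was lower than in WT, a difference of -1.34 ± 0.24 (limma adjusted p = 0.00145), a 2.54-fold lower signal. TG-CCRR+MI exceeded WT+MI by 1.20 ± 0.24 (limma adjusted p = 0.0278), and the responses differed by 1.24 ± 0.34 (limma adjusted p = 0.0479). The difference between TG-CCRR+MI and TG-CCRR was -0.10, with a 95% interval from -0.63 to 0.42. Its other probe gave -1.38 for WT+MI against WT and 1.26 for TG-CCRR+MI against WT+MI.

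Ppargc1a, which encodes the coactivator PGC-1α, stood at 3.91, 3.56 and 4.54 in TG-CCRR+MI, 2.57, 3.27 and 3.45 in WT+MI, 4.06, 4.59 and 4.68 in TG-CCRR, and 4.28, 4.43 and 4.50 in WT hearts. Every WT+MI array was below every other array. The gene was lower in WT+MI than in WT, a difference of -1.30 ± 0.28 (limma adjusted p = 0.00413), and TG-CCRR+MI differed from WT+MI by 0.90 ± 0.28 (limma adjusted p = 0.0601). Its relative Ppargc1b stood at 4.28, 3.46 and 3.62 in TG-CCRR+MI, 2.47, 3.16 and 2.96 in WT+MI, 3.90, 4.18 and 4.24 in TG-CCRR, and 4.00, 3.90 and 4.14 in WT hearts. Ppargc1b was lower in WT+MI than in WT, at -1.15 ± 0.23 (limma adjusted p = 0.00253), and higher in TG-CCRR+MI than in WT+MI by 0.92 ± 0.23 (limma adjusted p = 0.0349), with no overlap of arrays in either case.

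Esrra, which encodes ERRα, stood at 5.64, 5.41 and 5.47 in TG-CCRR+MI, 4.74, 5.21 and 5.42 in WT+MI, 5.46, 5.85 and 5.74 in TG-CCRR, and 5.96, 6.12 and 5.83 in WT hearts. It was lower in WT+MI than in WT, a difference of -0.85 ± 0.18 (limma adjusted p = 0.00325), while TG-CCRR+MI and WT+MI overlapped. Rxra was also lower in WT+MI, a difference of -0.68 ± 0.13. Second probes gave smaller differences, -0.28 for Esrra and -0.16 for Rxra. Of the 6 regulators only Ppard, the gene of PPARδ, was not, with a difference of -0.01 (95% interval from -0.22 to 0.19).

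**Figure D3:**
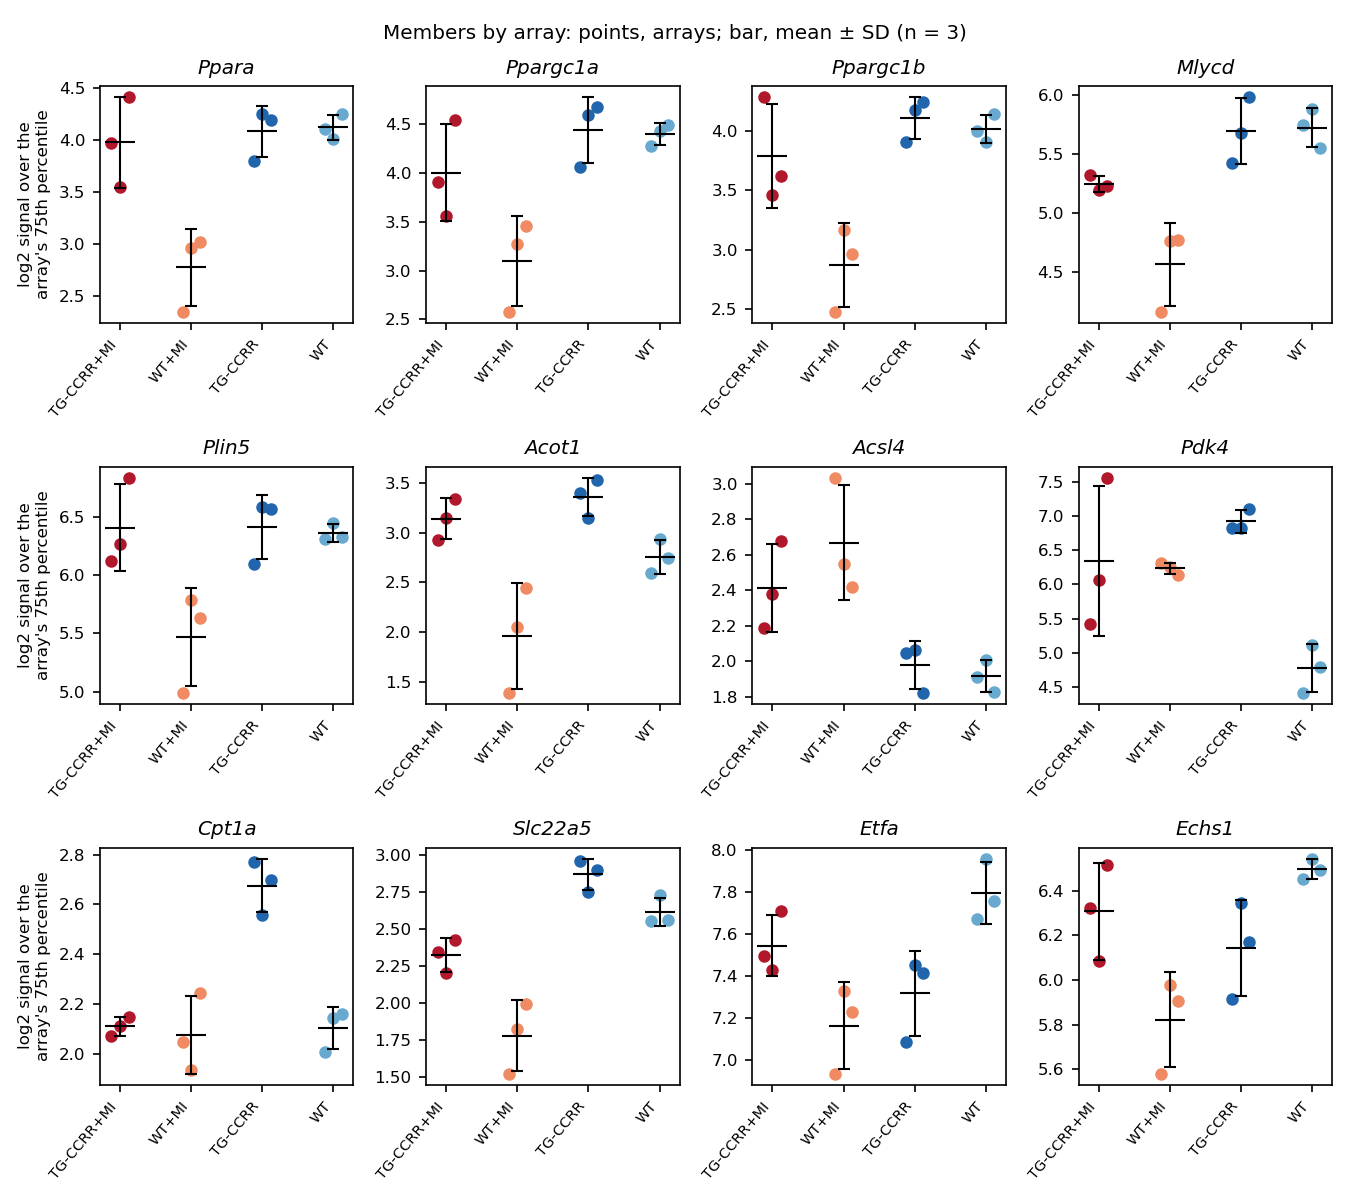
Log2 signal of 12 members on each array (points), with the mean ± SD of each group (n = 3), on a scale of its own for each gene. In Ppara and both coactivator genes the WT+MI points lie below the other groups, Pdk4 is lowest in WT, and Cpt1a is highest in TG-CCRR.

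Of the 3 genes of uptake and binding 0 changed in any of the 5 comparisons by limma's adjusted p, where 2.62% to 47.9% of all tested genes did. At an unadjusted p under 0.05 there was 1 in each comparison of 2 groups (17.9% to 55.0% of all tested genes). In the difference of responses there were 2 (32.2% of all tested genes). Lpl, which encodes lipoprotein lipase, stood at 8.16, 7.98 and 8.43 in TG-CCRR+MI, 7.59, 8.23 and 7.86 in WT+MI, 7.72, 7.98 and 8.01 in TG-CCRR, and 8.26, 8.46 and 8.31 in WT hearts. Apart from TG-CCRR+MI 3, every other array lay below the WT arrays, and the difference of WT+MI from WT was -0.45 ± 0.17 (limma adjusted p = 0.0528). Its 6 probes disagreed in that comparison, from -0.64 to 0.21, and in TG-CCRR against WT from -0.44 to 0.68. Fabp3, the cardiac fatty acid binding protein, stood at 7.94, 7.86 and 8.32 in TG-CCRR+MI, 8.20, 8.29 and 7.75 in WT+MI, 7.90, 8.19 and 8.14 in TG-CCRR, and 8.34, 8.51 and 8.25 in WT hearts. The WT+MI and WT arrays overlapped, with a difference of -0.29 (95% interval from -0.66 to 0.09). Slc27a1, a fatty acid transport protein, differed between TG-CCRR+MI and WT+MI by 0.51 ± 0.15 (limma adjusted p = 0.0521), with all 3 TG-CCRR+MI arrays higher.

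The activating enzymes went different ways. Acsl1, the main acyl-CoA synthetase of the heart, stood at 6.84, 6.70 and 7.45 in TG-CCRR+MI, 5.95, 6.71 and 6.56 in WT+MI, 7.08, 7.34 and 7.24 in TG-CCRR, and 7.43, 7.43 and 7.21 in WT hearts. It was lower in WT+MI than in WT, a difference of -0.95 ± 0.23 (limma adjusted p = 0.00633). Acsl4, which prefers polyunsaturated acids such as arachidonate, was instead higher in WT+MI, with a difference of 0.75 ± 0.17 (limma adjusted p = 0.00562). In Acsl4 the arrays stood at 2.19, 2.38 and 2.68 in TG-CCRR+MI, 3.03, 2.55 and 2.42 in WT+MI, 2.05, 2.06 and 1.82 in TG-CCRR, and 1.91, 2.01 and 1.83 in WT hearts. Both infarcted groups lay above both groups without infarction, but the difference of TG-CCRR+MI from TG-CCRR, 0.44 ± 0.17, did not pass (limma adjusted p = 0.145). Its other probes gave 1.5 and 1.42 for WT+MI against WT. The probes of Acsl1 spanned -1.90 to -0.95 there.

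Acsl3, a synthetase of the endoplasmic reticulum and lipid droplets, stood at -1.31, -1.89 and -1.85 in TG-CCRR+MI, -2.02, -2.0 and -2.37 in WT+MI, -2.47, -2.10 and -2.51 in TG-CCRR, and -2.02, -1.78 and -1.92 in WT hearts. It was the 1 member higher in TG-CCRR+MI than in TG-CCRR, by 0.67 ± 0.18 (limma adjusted p = 0.0447). Its second probe, well above background on 0 of 12 arrays, gave -0.20 there.

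In the carnitine system, 4 of 6 genes were lower in WT+MI than in WT (66.7%, against 29.4% of all tested genes). Slc22a5, the plasma membrane carnitine transporter OCTN2, stood at 2.35, 2.20 and 2.43 in TG-CCRR+MI, 1.52, 1.83 and 1.99 in WT+MI, 2.96, 2.75 and 2.90 in TG-CCRR, and 2.56, 2.73 and 2.56 in WT hearts. No arrays overlapped between any 2 of the groups compared. It was the 1 member lower in both infarction comparisons, a difference of -0.54 ± 0.13 in TG-CCRR+MI against TG-CCRR (limma adjusted p = 0.0307) and one of -0.84 ± 0.13 in WT+MI against WT (limma adjusted p = 0.000802). TG-CCRR+MI was higher than WT+MI by 0.55 ± 0.13 (limma adjusted p = 0.0338). Its second probe gave -0.35 in both infarction comparisons.

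Cpt1a and Cpt1b encode the liver and muscle forms of carnitine palmitoyltransferase 1, the regulated entry step. Cpt1b stood at 5.28, 5.07 and 5.52 in TG-CCRR+MI, 4.24, 4.94 and 4.80 in WT+MI, 5.12, 5.38 and 5.51 in TG-CCRR, and 5.34, 5.36 and 5.39 in WT hearts. The muscle form was lower in WT+MI than in WT, a difference of -0.70 ± 0.19 (limma adjusted p = 0.0112), and TG-CCRR+MI differed from WT+MI by 0.63 ± 0.19 (limma adjusted p = 0.0524). The liver form, whose promoter window carries the half-site shown above, had another pattern. Cpt1a stood at 2.07, 2.11 and 2.15 in TG-CCRR+MI, 2.05, 1.93 and 2.24 in WT+MI, 2.77, 2.56 and 2.70 in TG-CCRR, and 2.01, 2.14 and 2.16 in WT hearts. The 3 TG-CCRR arrays lay above all 9 others. It was lower in TG-CCRR+MI than in TG-CCRR, a difference of -0.57 ± 0.11 (limma adjusted p = 0.0121) and higher in TG-CCRR than in WT by 0.57 ± 0.11 (limma adjusted p = 0.0238). These comparisons share the TG-CCRR arrays, which also hold the high atrial, white adipocyte and fibroblast marker signal given above, and the difference of responses was -0.54 ± 0.15 (limma adjusted p = 0.0529).

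Cpt2, the inner membrane transferase, and Crat, carnitine acetyltransferase, were lower in WT+MI than in WT, with differences of -0.62 ± 0.17 and -0.69 ± 0.17. Slc25a20, the carnitine-acylcarnitine carrier, did not pass, and its WT+MI arrays ranged from 0.36 to 1.70.

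The enzymes of the β-oxidation spiral moved nearly in step in wild-type hearts. All 7 acyl-CoA dehydrogenase and electron transfer genes were lower in WT+MI than in WT, from -0.67 to -0.44 with a median of -0.63. Of all tested genes 29.4% were lower there. Between TG-CCRR+MI and TG-CCRR 0 of the 7 changed (8.83% of all tested genes did), and their median was 0.00. At an unadjusted p under 0.05 there were also 0 (25.7% of all tested genes). The 7 are Acadvl, Acadl, Acadm and Acads, the very-long-, long-, medium- and short-chain dehydrogenases, and Etfa, Etfb and Etfdh, which pass the electrons to ubiquinone. Acadvl kept its call in only 12 of 24 alternatives and lost it by quantile normalization, in the authors' deposited table and within 1 slide, and Etfdh lost it with the mean of its probes. All 5 genes of the later steps, Hadha and Hadhb of the trifunctional protein, the hydratase Echs1, the dehydrogenase Hadh and the thiolase Acaa2, were lower in WT+MI than in WT, with differences of -0.68 to -0.52. With infarction in transgenic hearts 0 of 5 changed, against the same 8.83% of all tested genes. Hadha and Hadhb, with their shared window, differed by -0.68 ± 0.17 and -0.52 ± 0.17, and the 3 Hadhb probes spanned -1.29 to -0.52. Hadhb lost its call in 6 of 24 alternatives, among them quantile normalization, the authors' deposited table and no filter. Acadl lost its call in 4 and Acaa2 in 3. Medium-chain Acadm was lower, a difference of -0.67 ± 0.18 (limma adjusted p = 0.0113).

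Etfa and Echs1 were the enzymes whose responses differed. Etfa stood at 7.50, 7.43 and 7.71 in TG-CCRR+MI, 6.93, 7.33 and 7.23 in WT+MI, 7.09, 7.45 and 7.42 in TG-CCRR, and 7.67, 7.96 and 7.76 in WT hearts. Echs1 stood at 6.32, 6.08 and 6.52 in TG-CCRR+MI, 5.58, 5.98 and 5.91 in WT+MI, 5.92, 6.35 and 6.17 in TG-CCRR, and 6.45, 6.54 and 6.50 in WT hearts. In both genes the WT+MI arrays lay below all TG-CCRR+MI and WT arrays, and the TG-CCRR arrays lay below the WT arrays. The responses differed by 0.86 ± 0.21 for Etfa (limma adjusted p = 0.0405) and by 0.84 ± 0.22 for Echs1 (limma adjusted p = 0.0448). The TG-CCRR arrays enter this difference, and there the difference of Etfa from WT was -0.48 ± 0.15 (limma adjusted p = 0.128).

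Of the enzymes for unsaturated chains, Eci1, an enoyl-CoA isomerase, was lower in WT+MI than in WT, a difference of -0.79 ± 0.18 (limma adjusted p = 0.00527). Eci2 and the reductase Decr1 differed by -0.28 and -0.38 and did not pass. All 3 thioesterase genes, which release the acid from acyl-CoA, were lower in WT+MI (29.4% of all tested genes were), with Acot13 at -0.61 ± 0.16. Acot2, however, lost its call in 12 of 24 alternatives, among them within 1 slide.

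Acot1 stood at 2.93, 3.15 and 3.34 in TG-CCRR+MI, 1.38, 2.05 and 2.44 in WT+MI, 3.40, 3.15 and 3.53 in TG-CCRR, and 2.60, 2.94 and 2.74 in WT hearts. Acot2 stood at 3.08, 3.07 and 3.45 in TG-CCRR+MI, 2.22, 2.73 and 3.07 in WT+MI, 3.18, 3.44 and 3.60 in TG-CCRR, and 3.26, 3.33 and 3.11 in WT hearts. These genes encode near-identical proteins, so their probes may share signal. Acot1 was lower in WT+MI than in WT, a difference of -0.80 ± 0.24 (limma adjusted p = 0.0177) and higher in TG-CCRR+MI than in WT+MI by 1.18 ± 0.24 (limma adjusted p = 0.0281), a 2.27-fold higher signal. It differed between TG-CCRR and WT by 0.60 ± 0.24 (limma adjusted p = 0.217), with all TG-CCRR arrays higher. Acot2 was lower in WT+MI than in WT, at -0.56 ± 0.21 (limma adjusted p = 0.0443), and its difference after infarction, 0.53 ± 0.21, did not pass (limma adjusted p = 0.103).

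Pdk4 encodes a kinase that switches off pyruvate dehydrogenase and so favours fatty acid over glucose oxidation. Its arrays stood at 5.43, 6.06 and 7.56 in TG-CCRR+MI, 6.31, 6.25 and 6.14 in WT+MI, 6.83, 6.82 and 7.11 in TG-CCRR, and 4.41, 5.12 and 4.79 in WT hearts. All 9 other arrays lay above the 3 WT arrays, and the TG-CCRR+MI arrays had the widest spread of any member in any group (SD 1.09). Pdk4 was higher in TG-CCRR than in WT by 2.14 ± 0.42 (limma adjusted p = 0.0271), a 4.42-fold higher signal and the largest difference of any member in any comparison. WT+MI exceeded WT by 1.46 ± 0.42 (limma adjusted p = 0.0162). Both comparisons share the WT arrays. The responses to infarction differed by -2.03 ± 0.60, which did not pass (limma adjusted p = 0.0577).

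Mlycd encodes malonyl-CoA decarboxylase, which removes the inhibitor of carnitine palmitoyltransferase 1. It stood at 5.32, 5.19 and 5.23 in TG-CCRR+MI, 4.16, 4.76 and 4.77 in WT+MI, 5.43, 5.68 and 5.99 in TG-CCRR, and 5.75, 5.89 and 5.55 in WT hearts. The WT+MI arrays were the lowest of all. Mlycd was lower in WT+MI than in WT, a difference of -1.17 ± 0.19 (limma adjusted p = 0.000916) and higher in TG-CCRR+MI than in WT+MI by 0.69 ± 0.19 (limma adjusted p = 0.0438). The uncoupling protein gene Ucp3 stood at 0.69, 0.98 and 1.60 in TG-CCRR+MI, 1.29, 0.63 and 0.69 in WT+MI, 2.20, 1.81 and 1.95 in TG-CCRR, and 1.49, 1.21 and 0.80 in WT hearts. As in Cpt1a, the TG-CCRR arrays were the 3 highest, but Ucp3 passed in no comparison (TG-CCRR+MI minus TG-CCRR -0.90 ± 0.26, limma adjusted p = 0.0609, and TG-CCRR minus WT 0.82 ± 0.26, limma adjusted p = 0.14).

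On the lipid droplet, Plin5, the perilipin that tethers droplets to mitochondria, stood at 6.12, 6.27 and 6.84 in TG-CCRR+MI, 4.99, 5.79 and 5.63 in WT+MI, 6.10, 6.58 and 6.57 in TG-CCRR, and 6.31, 6.45 and 6.33 in WT hearts. Every WT+MI array was below every other array. Plin5 was lower in WT+MI than in WT, a difference of -0.90 ± 0.24 (limma adjusted p = 0.0112) and higher in TG-CCRR+MI than in WT+MI by 0.94 ± 0.24 (limma adjusted p = 0.0368). Pnpla2, the triglyceride lipase of the droplet, differed by -0.04 (95% interval from -0.44 to 0.35) between WT+MI and WT.

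**Figure D4:**
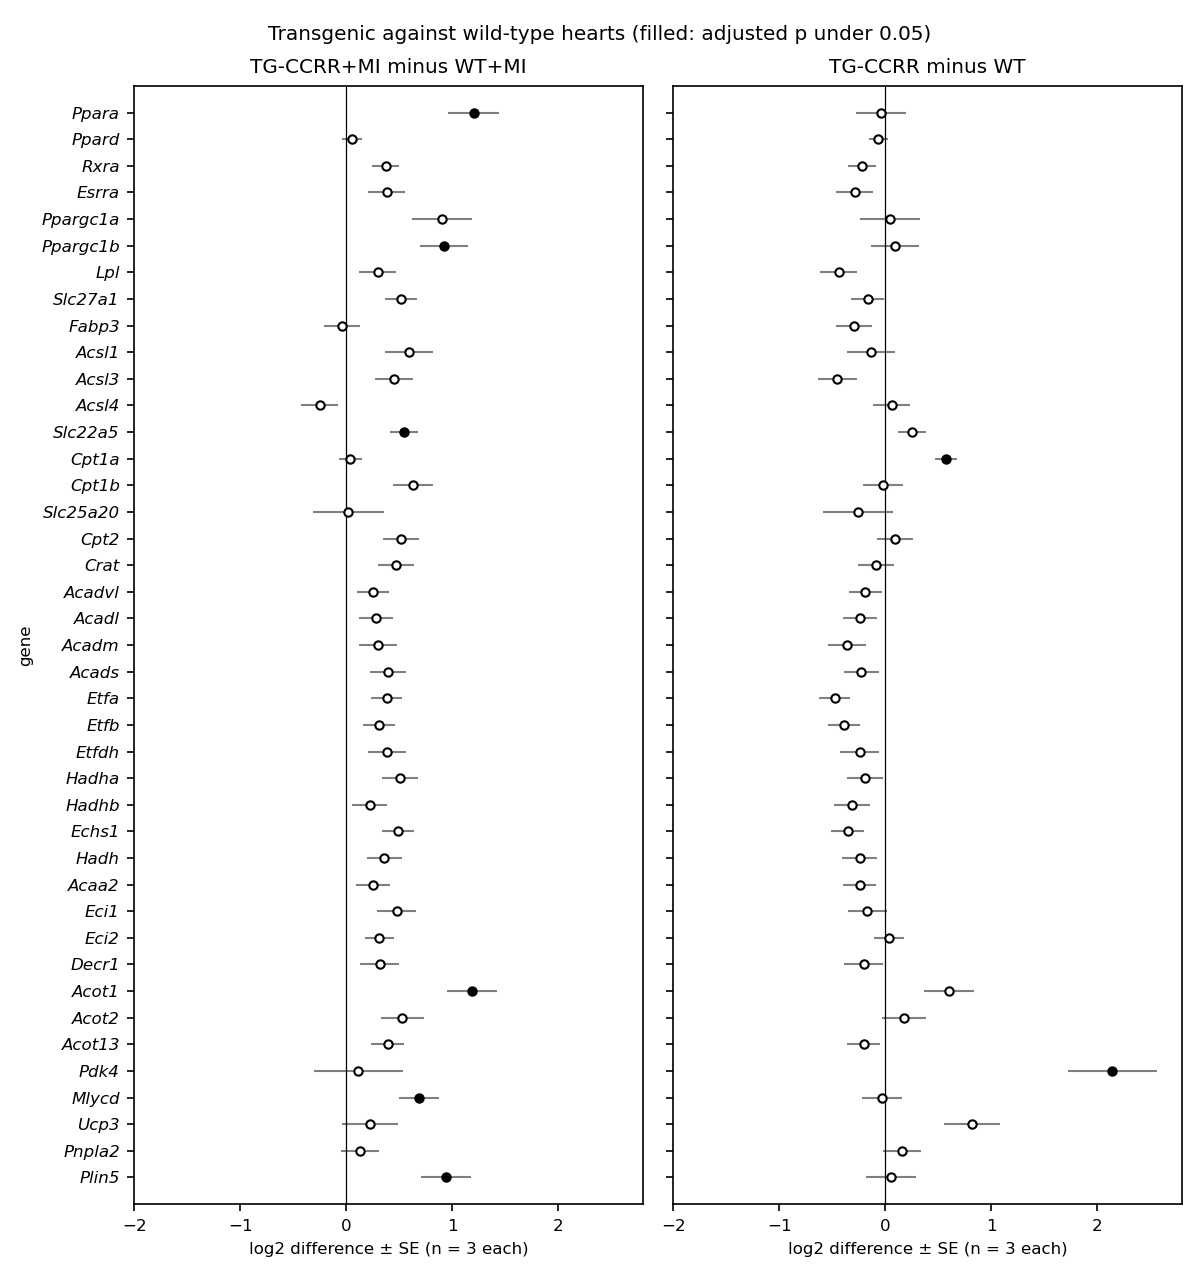
Log2 differences ± SE of the 41 genes (n = 3 each) for TG-CCRR+MI minus WT+MI (left) and TG-CCRR minus WT (right), with filled points for limma adjusted p under 0.05. After infarction 39 of 41 points lie above 0 and 6 are filled, and without infarction Pdk4 (2.14) and Cpt1a (0.57) are filled.

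The wider pathway was read from 56 other fatty acid genes, of which 55 were tested. In WT+MI against WT, 5 were higher and 25 lower (54.5%, against 47.9% of all tested genes), with a median of -0.33. In TG-CCRR+MI against TG-CCRR, 2 were higher and 1 lower (5.45% against 8.83%). In TG-CCRR against WT, 2 were higher and 0 lower (3.64% against 2.62%), with 11 at an unadjusted p under 0.05. After infarction, 16 were higher and 1 was lower in TG-CCRR+MI than in WT+MI (30.9% against 12.2%). In the difference of responses, 7 were higher and 1 was lower (14.5% against 8.74%). Angptl4, a PPAR target that inhibits lipoprotein lipase, stood at 4.31, 5.15 and 4.78 in TG-CCRR+MI, 6.54, 5.73 and 6.0 in WT+MI, 4.93, 3.78 and 4.53 in TG-CCRR, and 1.58, 2.95 and 1.10 in WT hearts. Like Pdk4 it was lowest in WT hearts, and it was higher in WT+MI than in WT by 4.21 ± 0.46 (limma adjusted p = 0.000166). The lipid droplet gene Plin2 was higher after infarction in both backgrounds, by 0.87 ± 0.21 in TG-CCRR+MI against TG-CCRR (limma adjusted p = 0.0293) and by 1.70 ± 0.21 in WT+MI against WT (limma adjusted p = 0.00027).

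Other regulators and enzymes fell in WT+MI against WT. They were Rxrg, a partner receptor of PPARs (-1.78 ± 0.24), Perm1, a muscle gene induced by PGC-1 and ERR (-1.66 ± 0.21), Ehhadh, a peroxisomal enzyme (-1.51 ± 0.27), and the transcription factor Klf15 (-1.41 ± 0.33). Pdk1, another pyruvate dehydrogenase kinase, was higher in TG-CCRR+MI than in TG-CCRR by 0.46 ± 0.13 (limma adjusted p = 0.0488). Cd36, the main fatty acid translocase, differed by -0.23 ± 0.19 between WT+MI and WT (limma adjusted p = 0.342).

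The fall in wild-type hearts stood beside lower cardiomyocyte markers, 7 of 16 of which were lower in WT+MI than in WT (43.8%, against 29.4% of all tested genes), with a median of -0.46. When each array was scaled by these 16 markers in place of the 75th percentile, the median of all genes moved from -0.14 to 0.29 and that of the 41 from -0.62 to -0.18. On that scale 7 of the 41 passed, with Ppara (-0.91), Ppargc1a (-0.87), Mlycd (-0.73), Ppargc1b (-0.71) and Acsl1 (-0.51) lower and Pdk4 (1.89) and Acsl4 (1.18) higher. Without WT+MI 1, the array with the high atrial and neutrophil signal, 23 of the 41 passed and their median was -0.49. Within slide 1, which holds both groups, 28 passed. The shares of all tested genes that passed in these settings are not given here.

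**Figure D5:**
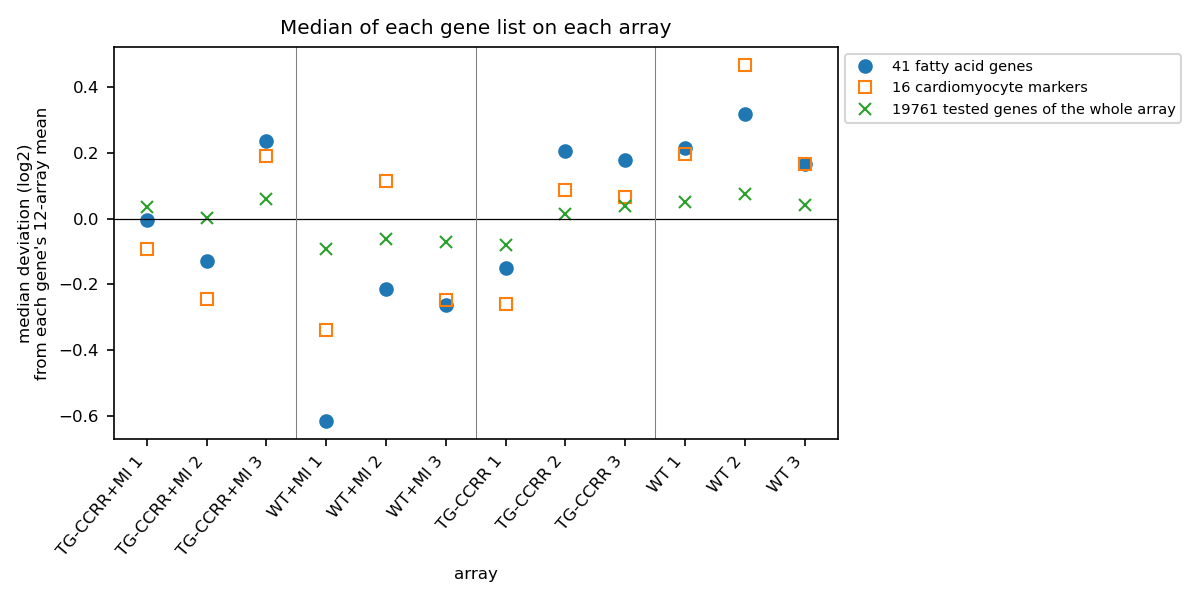
Median deviation (log2) of the 41 genes, the 16 cardiomyocyte markers and all tested genes from each gene's mean over the 12 arrays, by array. On WT+MI 1 the 41 genes lie at -0.61 and the markers at -0.34, while on WT+MI 2 the markers lie at 0.11 and the 41 genes at -0.21.

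The calls that involve transgenic hearts depended on slide and on single arrays. All TG-CCRR+MI arrays lie on slide 2, which holds no wild-type array, so slide and group cannot be told apart between TG-CCRR+MI and WT+MI, and a fit with slide as a block rests on TG-CCRR 3 against TG-CCRR 1 and 2. With that block 0 members passed limma's adjusted p in any comparison with a transgenic group. At an unadjusted p under 0.05 there were 1 in TG-CCRR+MI against WT+MI, 5 in TG-CCRR+MI against TG-CCRR, 6 in TG-CCRR against WT and 8 in the difference of responses. Ppara then differed after infarction by 1.03 ± 0.45 (limma adjusted p = 0.669), Pdk4 between TG-CCRR and WT by 2.05 ± 0.49 (limma adjusted p = 0.0728) and Cpt1a by 0.56 ± 0.13 (limma adjusted p = 0.0632). The differences between TG-CCRR+MI and WT+MI also moved with that block. Their median over the members was 0.22 in place of 0.38, the lowest of all alternatives. Mlycd went from 0.69 to 0.25, while Acsl3 went from 0.45 to 0.68. In 14 of the 41, uncalled in either fit, the value moved by at least its standard error. Within slide 1, Pdk4 exceeded WT in TG-CCRR 1 and 2 by 2.05 ± 0.19 (limma adjusted p = 0.00911). Within slide 2 TG-CCRR 3 stands alone against TG-CCRR+MI, so only the size of a difference is given. The members ran from -0.86 (Ucp3) to 0.83 (Acsl3), with Mlycd at -0.74, Cpt1a at -0.59 and Slc22a5 at -0.57. Without WT+MI 1, without TG-CCRR+MI 1 or without TG-CCRR+MI 3, 0 members passed in TG-CCRR+MI against WT+MI, and Ppara then lay between 0.98 and 1.20. Shares of all tested genes that passed with the slide block or these removals are not given here. The counts therefore do not set the members apart from the whole array.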

How the data were processed

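Total RNA of 12 mouse heart samples was labelled in 1 colour and hybridised to Agilent arrays of 62976 features each, of which 59305 are non-control spots. Per the file headers, the intensity values are the background-subtracted processed signals that Agilent Feature Extraction 12.0.3.1 wrote for each spot. The deposited value table of the authors holds log2 values of the same arrays (column medians 4.21 to 4.22, Spearman correlation with the own array at least 0.99999). Its normalization is unstated beyond the mention of limma in the submitters' processing notes, and it served as an alternative. In all 5 comparisons as many members kept or changed their result with it as by quantile normalization. The table and quantile normalization may therefore not be separate checks.

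The log2 of each spot was taken, spots flagged as outliers were left out, and the remaining spots of a probe were averaged. By this, 49 probes without a remaining spot on some array were dropped. The 75th percentile of the probes other than controls was then subtracted from each array (taken over spots, it was 198.3 to 373.5 in signal units). A gene took its brightest probe by mean over the arrays, and a gene was tested where every one of the 3 arrays of some group measured it well above background. All 12 arrays entered 1 group-means model in limma 3.58.1 (R 4.3.3), with Benjamini-Hochberg adjustment over all tested genes and a threshold of 0.05. The fit was checked on simulated data.

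The named genes were all 41 members, with every array's value for those with the largest or most significant differences in each comparison and for 12 genes picked by role. The members and the lists of related and marker genes were chosen with earlier results of these data known. Alternatives were another background correction, normalization, scaling, filter, probe rule, slide or replicate block, set of samples, and the removal of each array. Arrays give no read depth, so the precision rests on the number of arrays. The values of 1 related gene are not reported here.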

Additional observations from a re-analysis of the deposited data

Results flagged for a closer look

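The infarction response differed between transgenic and wild-type hearts for 3 of the 41 genes by limma's test of the difference itself, with 3 arrays in each of the 4 groups. For Ppara the response of the TG-CCRR pair minus that of the WT pair was 1.24 ± 0.34 (limma adjusted p = 0.0479). For Etfa, an electron transfer flavoprotein subunit, it was 0.86 ± 0.21 (limma adjusted p = 0.0405). For Echs1, the enoyl-CoA hydratase, it was 0.84 ± 0.22 (limma adjusted p = 0.0448). The 16 cardiomyocyte markers had a median difference of responses of 0.42, and 1 of them was called (6.25%, against 8.74% of all tested genes). Whether the 3 genes follow these markers was not tested. When the arrays were scaled by those markers the values were 0.82 ± 0.29 for Ppara, 0.44 ± 0.20 for Etfa and 0.42 ± 0.21 for Echs1, and 0 of the 3 genes passed (limma adjusted p = 0.139 for Ppara, 0.229 for Etfa and 0.267 for Echs1). With slide as a block the values were 1.13, 0.76 and 0.81, and 0 of the 3 genes passed (limma adjusted p = 0.26 for Ppara, 0.243 for Etfa and 0.24 for Echs1). Over 22 alternatives Ppara lost its call in 14, Etfa in 13 and Echs1 in 14. Of the 3 genes, 0 kept the call through every removal of 1 array.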

How the results depend on the processing

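Among the 30 members that changed in WT+MI against WT, 6 passed under all 24 alternatives (Acsl1, Acsl4, Mlycd, Ppara, Ppargc1a and Ppargc1b). With the scale by cardiomyocyte markers left aside, 19 passed under all the rest, these 6 among them, and 21 of the 30 passed with any 1 array removed. The count was 7 on the cardiomyocyte scale and ran from 23 to 31 over removals, with 23 without WT 2 or without WT+MI 1, and Pdk4 was lost without WT 1 (limma adjusted p = 0.0585). The 30 related genes that changed there gave 28 to 33 over removals. In TG-CCRR+MI against TG-CCRR the 3 members became 0 on the cardiomyocyte scale, with slide as a block, within 1 slide and with only the groups compared, and 1 without a filter or with the mean of a gene's probes, with 1 to 5 over removals. The 3 related genes there became 5 by quantile normalization or the authors' deposited table, 1 on the cardiomyocyte scale, without a filter or with only the groups compared, and 0 with slide as a block or within 1 slide, with 1 to 5 over removals. In TG-CCRR against WT the 2 members became 1 on the cardiomyocyte scale or within 1 slide and 0 without a filter or with slide as a block. Without any 1 of the WT arrays, TG-CCRR 1 or TG-CCRR 3 there were 0, so removals gave 0 to 2, and on the cardiomyocyte scale the members' median turned to 0.14, with 0.25 for all genes. The 2 related genes there became 1 without a filter or with slide as a block, with 1 to 5 over removals. In TG-CCRR+MI against WT+MI the 6 members became 22 with normexp, 11 by quantile normalization or the authors' table, 1 on the cardiomyocyte scale, and 0 without a filter, with slide as a block or with only the groups compared, with 0 to 10 over removals. The 17 related genes became 26 with normexp, 1 on the cardiomyocyte scale and 0 without a filter, with slide as a block or with only the groups compared, with 0 to 22 over removals. In the difference of responses the 3 members became 8 with normexp, 5 by quantile normalization or the authors' table, 6 with a filter on all 12 arrays, 1 on the cardiomyocyte scale (Pdk4, at -2.45) and 0 without a filter or with slide as a block, with 0 to 7 over removals. The 8 related genes became 2 on the cardiomyocyte scale and 0 without a filter or with slide as a block, with 0 to 17 over removals. With the replicate number as a block the members called were 30 in WT+MI against WT, 1 in TG-CCRR+MI against TG-CCRR, 2 in TG-CCRR against WT, 6 in TG-CCRR+MI against WT+MI and 2 in the difference of responses, and the related genes 30, 1, 2, 14 and 6 in the same order. Arrays of the same number did not deviate together (correlation of deviations -0.26 to 0.12 over 18 pairs, against -0.18 to 0.25 over 36 pairs of different numbers), so the numbers were not taken as pairs. A 75th percentile over spots in place of probes, chosen after seeing the data, moved 0 of these counts by over 1.5 times. Under it, however, Ppara lost its call in the difference of responses. No call of a member turned its direction. The shares of all tested genes called under these alternatives are not given here, so the counts do not set the members apart from the whole array. Apart from the alternatives' own construction, the cause of each change was not tested. Within 1 slide no value exists for TG-CCRR+MI against WT+MI or the difference of responses.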
